A study of Homo sapiens with 10 samples.

Results

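A set of 92 genes had lower signal with ID1 siRNA than with control siRNA in each of 4 matched pairs of arrays, out of 12514 genes tested. Members were selected on these values: for each gene the probe set of highest mean log2 signal over the 10 arrays was taken, that mean had to reach the log2 of a signal of 66.7 (the filter), and the log2 ratio of ID1 siRNA to control siRNA had to be -0.585 (1.5-fold lower) or less in every pair. The rule was met by 96 genes, or 0.767% of those tested. ID1, AXL, GSPT1 and TIMP2 were among them and were set aside, as was BNIP3, which did not meet it, so that 92 members remained. Because the ID1 siRNA ratios chose the members, they are described below without a test, and the share of genes that met the rule supports nothing about the members. By the same rule in the opposite direction, 103 genes were higher throughout.

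The study measured RNA on Affymetrix U133 Plus 2.0 arrays in A549 and H1650, 2 established non-small cell lung cancer lines, of which A549 carries mutant k-Ras and H1650 mutant EGFR according to the labels. In each line there was 1 array with ID1 siRNA and nicotine, 1 with ID1 siRNA and EGF, 1 with control siRNA and nicotine, 1 with control siRNA and EGF, and 1 with control siRNA and no stimulus. Cells were starved of serum for 48 h before stimulation for 18 h with nicotine at 1 µM or EGF at 100 ng/ml, and no array combined ID1 siRNA with the absence of a stimulus. The siRNA sequences are not given in the sources used here. Nothing in the labels says that the arrays of a line came from separate cultures, so p-values measure only the spread between these arrays, and with pooled cells fewer cells of a type and less RNA per cell cannot be told apart.

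ID1 is a helix-loop-helix protein without a DNA-binding region. Its partners are the E proteins, transcription factors that bind E-boxes (CANNTG in DNA), and a partner held by ID1 cannot bind there. In lung cancer cells ID1 is known as a gene induced by mitogens, with roles in proliferation, migration and invasion.

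ID1 was the targeted gene and is given first as a check of the labels. Its signal in A549 was 1343.4 with nicotine and 1342.7 with EGF under ID1 siRNA, against 3719.8, 3048.6 and 1645.1 under control siRNA with nicotine, with EGF and without stimulus. In H1650 it was 881 with nicotine and 1030.5 with EGF under ID1 siRNA, against 4964, 5120.6 and 5029.9 under control siRNA in the same order. The matched falls were 63.9% and 56.0% in A549 and 82.3% and 79.9% in H1650, and the unstimulated A549 control lay much nearer to the ID1 siRNA arrays than the unstimulated H1650 control did. The array medians ran between 61.2 and 79.6. All 5 epithelial markers (KRT8, KRT18, KRT19, EPCAM and KRT7) were above the filter, with summed signals of 71137 to 81393 under ID1 siRNA and 72796 to 117095 under control siRNA in A549, and of 88382 to 98214 under ID1 siRNA and 86225 to 90929 under control siRNA in H1650. Of 8 blood and endothelial markers 7 had a probe set here and 2 were above the filter (PECAM1 and HBB). Sums over all 7, dim ones included, were 571 to 630 (ID1 siRNA) against 444 to 483 (control siRNA) in A549 and 605 to 702 against 383 to 595 in H1650. Of 7 fibroblast markers 3 were above the filter (COL1A1, DCN and THY1), and sums over all 7 were 1051 to 1175 against 666 to 1369 in A549 and 971 to 1356 against 757 to 873 in H1650. The part of these markers in the results was not tested.

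The promoters of 4 members are given as examples of start regions searched for the motif that E proteins bind. IFTAP was picked for its E-boxes, so the 4 do not stand for the set. VAMP3 (chr1:7771046-7771345, plus strand), REEP5 (chr5:112922178-112922477, minus strand) and GALNT7 (chr4:173168561-173168860, plus strand) lead the order of the members, and IFTAP (chr11:36594252-36594551, plus strand) is the first matched member in that order whose promoter held more than 1 E-box. Each runs 5′ to 3′ from 250 bases before to 50 bases after the RefSeq gene start (GRCh38.p14), in lower case with every CANNTG in capitals.
VAMP3: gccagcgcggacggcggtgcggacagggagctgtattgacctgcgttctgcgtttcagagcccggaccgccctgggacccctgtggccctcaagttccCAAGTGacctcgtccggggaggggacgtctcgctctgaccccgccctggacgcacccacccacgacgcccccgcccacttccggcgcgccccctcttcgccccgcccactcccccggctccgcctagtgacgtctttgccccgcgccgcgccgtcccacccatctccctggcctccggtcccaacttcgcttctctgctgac
REEP5: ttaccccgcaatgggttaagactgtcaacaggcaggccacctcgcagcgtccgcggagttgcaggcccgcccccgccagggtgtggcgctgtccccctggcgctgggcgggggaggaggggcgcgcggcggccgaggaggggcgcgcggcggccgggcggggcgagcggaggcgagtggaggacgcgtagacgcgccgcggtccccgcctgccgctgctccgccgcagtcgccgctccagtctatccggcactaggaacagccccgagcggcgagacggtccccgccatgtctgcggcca
GALNT7: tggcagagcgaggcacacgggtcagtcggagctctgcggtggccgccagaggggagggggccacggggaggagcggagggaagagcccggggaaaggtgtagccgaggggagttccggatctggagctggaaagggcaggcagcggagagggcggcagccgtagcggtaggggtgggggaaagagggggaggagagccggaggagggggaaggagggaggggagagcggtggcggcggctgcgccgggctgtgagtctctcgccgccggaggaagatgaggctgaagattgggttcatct
IFTAP: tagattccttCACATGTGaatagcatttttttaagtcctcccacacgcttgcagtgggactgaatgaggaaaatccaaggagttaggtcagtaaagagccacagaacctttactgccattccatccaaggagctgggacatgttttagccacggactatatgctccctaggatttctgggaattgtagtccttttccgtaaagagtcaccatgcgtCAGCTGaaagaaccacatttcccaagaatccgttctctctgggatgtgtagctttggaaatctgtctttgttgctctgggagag
VAMP3 held 1 E-box, CAAGTG, which begins at -152 from the start. REEP5 and GALNT7 held 0 in this window. IFTAP held 3, of which CACATG (-240) and CATGTG (-238) overlap and CAGCTG lies at -34. CANNTG is its own reverse complement as a pattern, so both strands were searched at once. Promoters were matched for 75 of the 92 members, and 17 had no entry. CANNTG was found in 34 of the 75 (45.3%), in 60.3% of the promoters of the 10111 remaining tested genes that had one and in 68.9% of all 27305 promoters of this length. CAGCTG was in 14.7% of the members' promoters, 16.9% of those of the remaining tested genes and 17.7% of all. CAGGTG or its complement CACCTG was in 13.3%, 18.5% and 20.6% of the same groups. CACGTG was in 12.0%, 10.2% and 7.43%. Median GC content was 65.7% in the members, 65.3% in the remaining tested genes and 58.3% in all promoters. A match is a description of the letters and not a binding site, and no test of the shares was made.

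In each pair most members were lower by between 1.5-fold and 2-fold, and the leading ones by more than 2-fold in every pair. The median log2 ratio of the 92 members was -0.91 in A549 with nicotine, -0.92 in A549 with EGF, -0.98 in H1650 with nicotine and -0.96 in H1650 with EGF, beside medians of 0.01, 0.08, -0.03 and 0.01 for all tested genes in the same pairs. In single pairs 7.35%, 9.06%, 9.59% and 7.86% of tested genes lay at or past the threshold in that order. The steepest ratio in a pair was -1.66, -2.86, -2.39 and -2.49 in the same order. Of the members, 14 were at least 2-fold lower in all 4 pairs and 25 in none of them. Lower by any amount in all 4 pairs were 1920 tested genes. The members nearest the threshold inside it were AMZ2 (least fall -0.587), TNFRSF21 (-0.599) and DUSP18 (-0.599), and the nearest genes outside were HEATR3 (-0.577), RPH3AL (-0.577) and S100PBP (-0.572), so the edge of the set divides genes with almost equal ratios.

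**Figure D1:**
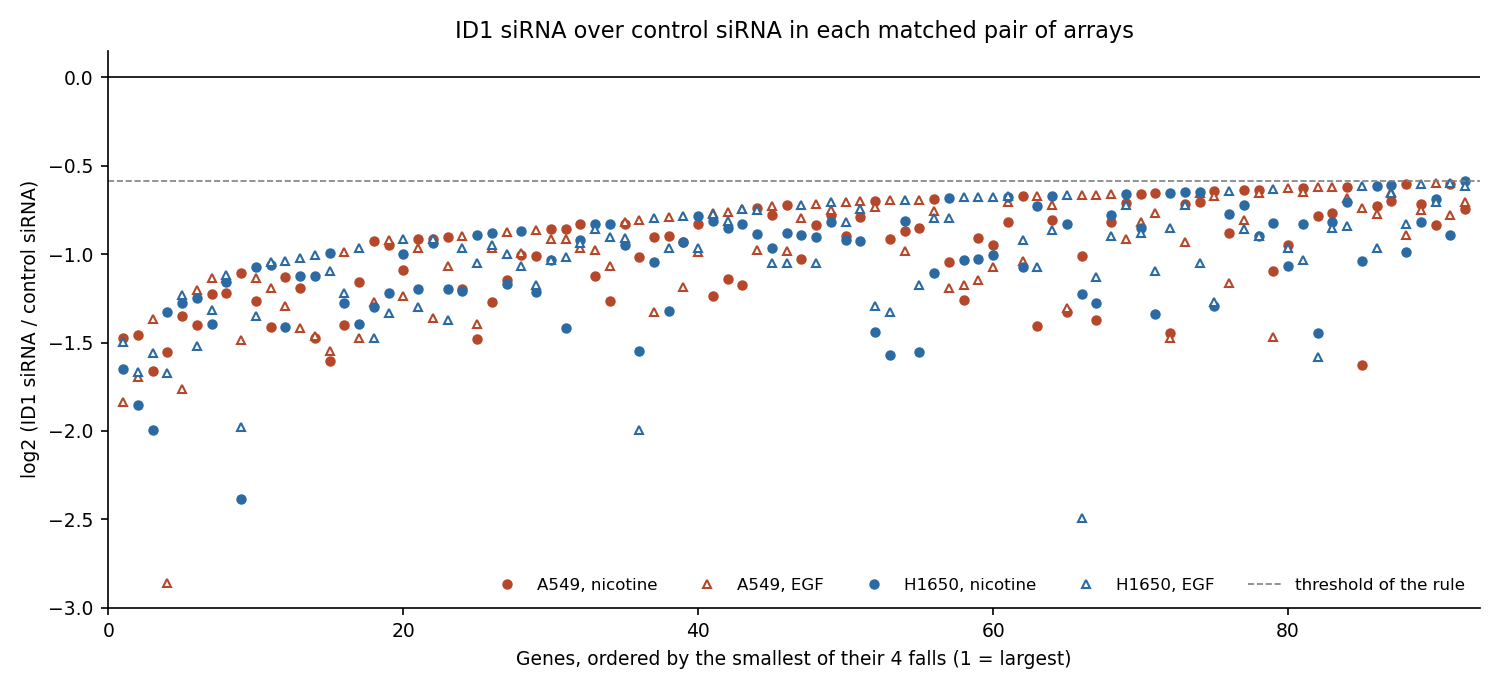
Log2 ratio of ID1 siRNA over control siRNA (vertical axis) for each of the 92 members, ordered along the horizontal axis by the smallest of their 4 falls, with 1 symbol per matched pair of arrays. All points lie at or under the dashed threshold because the rule chose them so, and most lie between -0.6 and -1.5 in both lines.

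VAMP3, also called cellubrevin, is a v-SNARE of recycling endosomes and led the set. VAMP3 had signals of 1991 with nicotine and 1869.9 with EGF on the A549 ID1 siRNA arrays, against 5521 with nicotine, 6672 with EGF and 2374 without stimulus on the A549 control siRNA arrays. On the H1650 arrays with ID1 siRNA the signal was 2156 (nicotine) and 2134 (EGF), and on those with control siRNA it was 6778 (nicotine), 6028 (EGF) and 6881 (no stimulus). Every ID1 siRNA array lay below every control array of its line, the falls in matched pairs were 2.77- to 3.57-fold, and the unstimulated control was close to ID1 siRNA in A549 and close to the stimulated controls in H1650. REEP5 belongs to the proteins that curve endoplasmic reticulum membranes into tubules. The A549 ID1 siRNA values for REEP5 were 1467 under nicotine and 1389.8 under EGF, and the control siRNA values were 4027 under nicotine, 4505 under EGF and 1809.6 unstimulated. H1650 gave 1737 (nicotine) and 2002 (EGF) with ID1 siRNA, against 6268 (nicotine), 6358 (EGF) and 6019 (unstimulated) with control siRNA. The groups did not overlap in either line, with falls of 2.74- to 3.61-fold. GALNT7 is a transferase that adds N-acetylgalactosamine to partly glycosylated peptides in mucin-type O-glycosylation. On the A549 arrays with ID1 siRNA the signal was 1183 (nicotine) and 1154 (EGF), and on those with control siRNA it was 3734 (nicotine), 2979 (EGF) and 1709.8 (no stimulus). GALNT7 had signals of 2467 with nicotine and 2518 with EGF on the H1650 ID1 siRNA arrays, against 9838 with nicotine, 7422 with EGF and 9739 without stimulus on the H1650 control siRNA arrays. ID1 siRNA arrays were the lowest in both lines, and the matched falls were 2.58- to 3.99-fold.

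PCBP1 binds poly(C) stretches of RNA and also delivers iron to enzymes. A549 gave 4485 (nicotine) and 4317 (EGF) with ID1 siRNA, against 11426 (nicotine), 14647 (EGF) and 5600.0 (unstimulated) with control siRNA. The H1650 ID1 siRNA values for PCBP1 were 4844 under nicotine and 5295 under EGF, and the control siRNA values were 11734 under nicotine, 12435 under EGF and 12079.9 unstimulated. The falls were 2.35- to 3.39-fold, and the unstimulated A549 control stood only a little above the ID1 siRNA arrays. CA5BP1 is a transcribed pseudogene of the mitochondrial carbonic anhydrase CA5B, with which its probes may share sequence, so its signal is uncertain. CA5BP1 had signals of 241 with nicotine and 267 with EGF on the A549 ID1 siRNA arrays, against 636 with nicotine, 616 with EGF and 295 without stimulus on the A549 control siRNA arrays. On the H1650 arrays with ID1 siRNA the signal was 274 (nicotine) and 269.7 (EGF), and on those with control siRNA it was 651 (nicotine), 772 (EGF) and 761 (no stimulus). ID1 siRNA was below every control in both lines, by 2.3- to 2.86-fold in the pairs. IFTAP takes part in intraflagellar transport, which carries cargo along cilia. On the A549 arrays with ID1 siRNA the signal was 448 (nicotine) and 389 (EGF), and on those with control siRNA it was 1045 (nicotine), 852 (EGF) and 555 (no stimulus). H1650 gave 158 (nicotine) and 164 (EGF) with ID1 siRNA, against 418 (nicotine), 409 (EGF) and 379 (unstimulated) with control siRNA. Both lines showed the lowest signals with ID1 siRNA, with falls of 2.19- to 2.63-fold. NTAQ1 removes the amide from N-terminal glutamine and so feeds proteins into the N-degron pathway. The A549 ID1 siRNA values for NTAQ1 were 932 under nicotine and 1004 under EGF, and the control siRNA values were 2169 under nicotine, 2208 under EGF and 1173 unstimulated. NTAQ1 had signals of 979 with nicotine and 1209.9 with EGF on the H1650 ID1 siRNA arrays, against 2180.5 with nicotine, 2627 with EGF and 2295 without stimulus on the H1650 control siRNA arrays. Its falls, 2.17- to 2.33-fold, varied little between the 4 pairs.

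**Figure D2:**
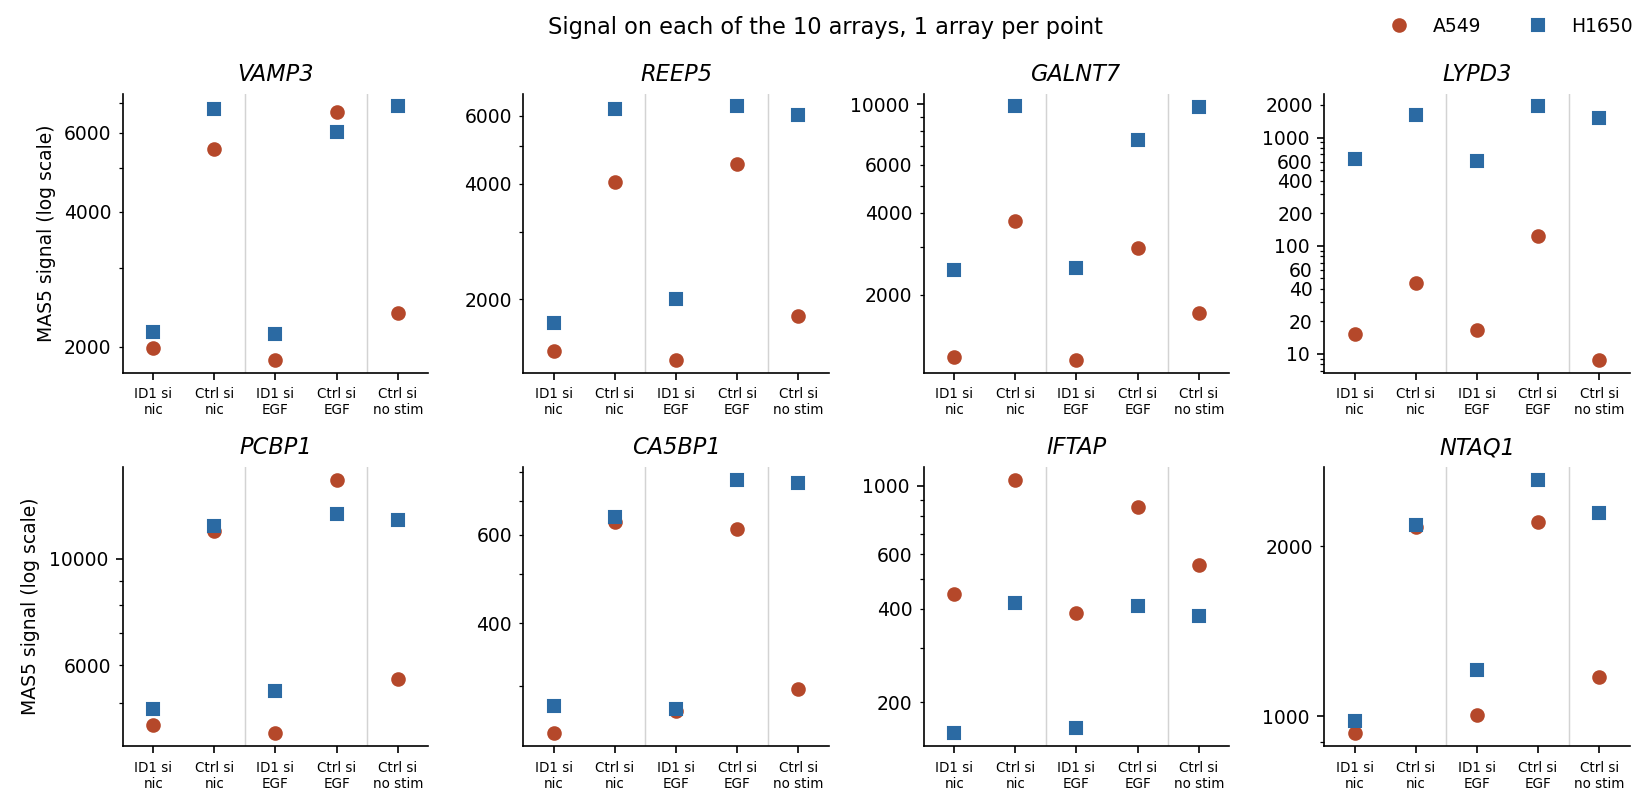
MAS5 signal (log scale, a separate vertical axis for each gene) on each of the 10 arrays for the first 8 members, by siRNA and stimulus, with A549 as circles and H1650 as squares. With ID1 siRNA both lines are low, while the unstimulated control (rightmost) is low in A549 and high in H1650, as for VAMP3 with 2374 in A549 and 6881 in H1650.

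LYPD3, a GPI-anchored surface protein of the Ly6/uPAR family, was bright in H1650 only. LYPD3 had signals of 15.4 with nicotine and 16.8 with EGF on the A549 ID1 siRNA arrays, against 45.2 with nicotine, 122 with EGF and 8.82 without stimulus on the A549 control siRNA arrays. On the H1650 arrays with ID1 siRNA the signal was 638 (nicotine) and 610.2 (EGF), and on those with control siRNA it was 1598 (nicotine), 1947 (EGF) and 1500.5 (no stimulus). In A549 only the EGF control reached the filter signal, so the A549 ratios, up to 7.25-fold, rest on dim values, whereas the H1650 groups were bright and did not overlap. TMEM150C is a membrane protein linked to mechanically activated currents. A549 gave 109 (nicotine) and 83.4 (EGF) with ID1 siRNA, against 235 (nicotine), 233 (EGF) and 140.2 (unstimulated) with control siRNA. The H1650 ID1 siRNA values for TMEM150C were 102 under nicotine and 129 under EGF, and the control siRNA values were 531 under nicotine, 506 under EGF and 455 unstimulated. Its falls were 2.15- to 5.23-fold, larger in H1650 than in A549, and no groups overlapped. ALMS1-IT1 is annotated as a long non-coding RNA from within ALMS1, and a probe there cannot be told apart from unspliced ALMS1 RNA. On the A549 arrays with ID1 siRNA the signal was 72.4 (nicotine) and 63.5 (EGF), and on those with control siRNA it was 174 (nicotine), 139.5 (EGF) and 70.6 (no stimulus). H1650 gave 193 (nicotine) and 249.8 (EGF) with ID1 siRNA, against 405 (nicotine), 637 (EGF) and 389 (unstimulated) with control siRNA. The falls were 2.1- to 2.55-fold, and in A549 the unstimulated control lay within the range of the ID1 siRNA arrays. TSPAN13 is a tetraspanin, a family that organises membrane domains. The A549 ID1 siRNA values for TSPAN13 were 3833 under nicotine and 4668 under EGF, and the control siRNA values were 10192 under nicotine, 10660.1 under EGF and 6549 unstimulated. TSPAN13 had signals of 6439 with nicotine and 7056 with EGF on the H1650 ID1 siRNA arrays, against 13458 with nicotine, 14539 with EGF and 14376 without stimulus on the H1650 control siRNA arrays. The ID1 siRNA arrays were lowest in both lines, with falls of 2.06- to 2.66-fold.

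GPD2 is the mitochondrial glycerol-3-phosphate dehydrogenase, which passes electrons from cytosolic NADH to the respiratory chain. On the A549 arrays with ID1 siRNA the signal was 1142 (nicotine) and 1007 (EGF), and on those with control siRNA it was 2498 (nicotine), 2472 (EGF) and 1146 (no stimulus). GPD2 had signals of 1358 with nicotine and 1698 with EGF on the H1650 ID1 siRNA arrays, against 3612 with nicotine, 3493 with EGF and 3356 without stimulus on the H1650 control siRNA arrays. In A549 the unstimulated control was almost level with the nicotine ID1 siRNA array, and the falls against stimulated controls were 2.06- to 2.66-fold. AAGAB is a chaperone for assembly of the AP-1 and AP-2 adaptor complexes of clathrin coats. A549 gave 1330.4 (nicotine) and 1262 (EGF) with ID1 siRNA, against 3033 (nicotine), 3368 (EGF) and 1465 (unstimulated) with control siRNA. On the H1650 arrays with ID1 siRNA the signal was 1327 (nicotine) and 1672 (EGF), and on those with control siRNA it was 2889 (nicotine), 3399 (EGF) and 3664 (no stimulus). ID1 siRNA gave the lowest values in both lines, 2.03- to 2.67-fold below the matched controls, and the unstimulated H1650 control was the highest of the H1650 arrays. HIPK3 is a homeodomain-interacting protein kinase. HIPK3 had signals of 1566 with nicotine and 1716 with EGF on the A549 ID1 siRNA arrays, against 4344 with nicotine, 4732 with EGF and 2038 without stimulus on the A549 control siRNA arrays. The H1650 ID1 siRNA values for HIPK3 were 2175 under nicotine and 2279.8 under EGF, and the control siRNA values were 4736 under nicotine, 4573 under EGF and 4684 unstimulated. Its groups did not overlap and its falls were 2.01- to 2.77-fold. FBXO36 is an F-box protein, of the family that brings substrates to SCF ubiquitin ligases. The A549 ID1 siRNA values for FBXO36 were 35.1 under nicotine and 30.5 under EGF, and the control siRNA values were 107 under nicotine, 89.1 under EGF and 11.3 unstimulated. H1650 gave 115 (nicotine) and 99.7 (EGF) with ID1 siRNA, against 230.2 (nicotine), 213 (EGF) and 242 (unstimulated) with control siRNA. The fall of 1.99- to 3.04-fold rests in A549 on dim signals, and the unstimulated A549 control was the dimmest array of all.

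The members were grouped by known function after their values were seen, so the groups describe the set and carry no test. Vesicle and membrane traffic held 10 members with a median mean log2 ratio of -1.03, 2 of them at least 2-fold lower in all pairs. Beside VAMP3 and AAGAB, this group held ARF3, a small GTPase of the Golgi (1.9- to 2.78-fold lower), and EHD2, an ATPase at caveolae (1.84- to 2.42-fold). Proteins of endoplasmic reticulum shape and the cytoskeleton were 6 (median -1.18, with REEP5 the 1 at least 2-fold lower throughout). LRRC1, a relative of the polarity protein Scribble, was 1.98- to 2.64-fold lower, TMCC1, a reticulum membrane protein at sites of endosome fission, 1.87- to 2.58-fold, and SPAST, the microtubule-severing enzyme spastin, 1.81- to 2.05-fold. Cell surface and membrane proteins were 12 (median -0.98, 3 of them 2-fold lower throughout), among them LYPD3, TMEM150C, TSPAN13 and FAM174A (1.75- to 3.99-fold). Glycosylation and secreted factors were 3 (median -0.89): GALNT7, NANP (1.64- to 2.07-fold), a phosphatase of sialic acid synthesis, and PDGFA (1.7- to 2.2-fold), a ligand of platelet-derived growth factor receptors.

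Mitochondria and metabolism was the most populated group with 13 members (median -1.02). GPD2 was the 1 at least 2-fold lower in every pair, and it was followed by SLC25A43, a mitochondrial carrier (1.89- to 2.52-fold), NUDT7, a peroxisomal coenzyme A hydrolase (1.89- to 2.57-fold), and NCEH1, a cholesteryl ester hydrolase (1.86- to 2.31-fold). Kinases, phosphatases and G-protein signalling had 11 members (median -0.94), led by HIPK3, UHMK1, a kinase with an RNA-binding-like region (1.95- to 2.78-fold), RPS6KA6, the S6 kinase RSK4 (1.89- to 2.46-fold), and HPCAL1, a neuronal calcium sensor relative (1.74- to 2.51-fold). Chromatin and transcription had 11 (median -0.83), of which 0 were 2-fold lower throughout. ELL2, an elongation factor of RNA polymerase II, was 1.82- to 2.32-fold lower, NR5A2, a nuclear receptor known from liver and pancreas, 1.78- to 1.95-fold, KDM4B, a histone demethylase, 1.65- to 2.07-fold, and CTBP2, a corepressor, 1.63- to 1.9-fold. Ubiquitin and protein turnover held 8 (median -0.93), with NTAQ1, FBXO36, UBE2E3, a ubiquitin-conjugating enzyme (1.89- to 2.35-fold), and LONRF2, a RING finger protein (1.83- to 2.1-fold), in the lead. In H1650, 3 arrays of LONRF2 and 2 of RPS6KA6 lay under the filter, so their falls there rest on dim signals. RNA binding, translation and non-coding RNA held 7 (median -1.01, 3 of them 2-fold lower throughout), with OIP5-AS1, a long non-coding RNA, at 1.6- to 2.29-fold. Cilia and centrosome held 4 (median -1.03): IFTAP, DNAAF5, a dynein arm assembly factor (1.62- to 1.98-fold), NEDD1, which brings gamma-tubulin to the centrosome (1.6- to 2.4-fold), and CEP15 (1.59- to 2.51-fold). The remaining members were 2 of autophagy and mTORC1 (ATG13 and KICS2) and 5 of other or uncertain function.

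The 2 ratios of a line, EGF and nicotine, differed by a median of 0.15 on the log2 scale. Averaged over a line, the fall was larger in A549 for 43 members and larger in H1650 for 49, with median line means of -0.94 in A549 and -0.93 in H1650. The line means of 14 members differed by more than 0.5 log2, 5 with the larger fall in A549 and 9 in H1650. The widest such gap was that of MICAL1, an actin-oxidising enzyme picked out here after its values were seen. MICAL1 had signals of 72.0 with nicotine and 120.1 with EGF on the A549 ID1 siRNA arrays, against 145 with nicotine, 190.4 with EGF and 195 without stimulus on the A549 control siRNA arrays. The H1650 ID1 siRNA values for MICAL1 were 51.7 under nicotine and 40.6 under EGF, and the control siRNA values were 121 under nicotine, 228 under EGF and 104 unstimulated. The MICAL1 falls were 1.59- to 5.63-fold, the ID1 siRNA signals of H1650 were under the filter, and in A549 the unstimulated control was the highest array.

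The members' probe sets were brighter than the average tested one. Their median mean log2 signal over 10 arrays was 10.44, against 9.51 for all tested genes, and 63 of 92 lay above the tested median. On the unstimulated array the members' median was 10.23 in A549 (tested genes 9.55), where 62 lay above the tested median, 28 in the top 25% and 2 under the filter. In unstimulated H1650 it was 10.98 (tested genes 9.61), with 68 above the median, 42 in the top 25% and 3 under the filter. A probe set's signal depends on its probes as well as on RNA, so these are places on the array scale and not an order of transcript abundance. All 10 arrays were at or above the filter for 81 members, as they were for 84.4% of tested genes, and the other 11 had at least 1 array below it. Protein-coding genes made up 89 members, with 2 long non-coding RNAs and 1 transcribed pseudogene. They lay on 20 chromosomes, and PDGFA and DNAAF5 were the 1 pair at most 1 protein-coding gene apart.

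The unstimulated arrays took different places in the lines, although the ratios of the rule did not use them. In A549, 68 members had the unstimulated control between the ID1 siRNA arrays and the stimulated controls, 14 within one of these groups, 9 below both ID1 siRNA arrays and 1 above both stimulated controls. In H1650 the counts were 30 between, 31 within a group, 1 below both and 30 above both. As a description, since these comparisons share arrays with the rule, the unstimulated control was below the mean of the stimulated controls by a median of -0.68 log2 in A549 (tested genes 0.00) and level with it at 0.00 in H1650 (tested genes 0.02). ID1 siRNA was below the unstimulated control by a median of -0.26 in A549 (tested genes 0.01) and of -1.01 in H1650 (tested genes -0.02). Both ID1 siRNA arrays were lower than the unstimulated control by the threshold for 3 members in A549, where 1.07% of tested genes were, and for 81 members in H1650, where 4.92% were. ID1 siRNA was below every control array, the unstimulated one included, for 70 members in A549, 90 in H1650 and 69 in both. The rule had already set ID1 siRNA below the matched controls. These counts, and those of the place of the unstimulated control, were not made over all tested genes and only describe the members.

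The place of the unstimulated control was then compared between the lines, in a contrast added after the data were seen. In each line the unstimulated control was set against the midpoint, the mean of its 4 stimulated arrays, and the A549 value was compared with the H1650 value. The midpoint holds the ID1 siRNA arrays that the rule chose to be low, so a control array level with the stimulated controls lies above it by 0.5 of the fall. Within 1 line the value is therefore partly fixed by the rule (0.5 of the mean fall had a median of 0.47 log2 in A549 and 0.46 in H1650), and no test is given there. The medians against the midpoint were -0.23 in A549 and 0.50 in H1650. Between the lines these parts mostly cancel: their difference, A549 minus H1650, had a median of -0.02, against -0.70 for the difference in unstimulated minus stimulated controls. By limma with Benjamini-Hochberg adjustment over all tested genes and 2 residual degrees of freedom, the value was lower in A549 than in H1650 for 14 members (15.2%, against 0.639% of tested genes) and higher for 0. The residual error comes from the gap between the EGF and nicotine ratios within each line, and the rule used those ratios. The rule may favour members with small gaps, so their SEs may be too small and these calls are not free of the rule. The same limit holds for the members' shares set beside those of tested genes. Of the 92 members 89 had the negative sign, with a median of -0.69 log2 (tested genes -0.03). Unadjusted p was under 0.05 for 70 members and for 14.2% of tested genes. For the 14 called members the part from the controls ran between -1.79 and -0.82, and the part from unequal falls between -0.43 and 0.28.

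The steepest called member was LRRC1. The A549 ID1 siRNA values for LRRC1 were 479 under nicotine and 552 under EGF, and the control siRNA values were 1265 under nicotine, 1094 under EGF and 446 unstimulated. LRRC1 had signals of 364 with nicotine and 317 with EGF on the H1650 ID1 siRNA arrays, against 881 with nicotine, 737 with EGF and 1055 without stimulus on the H1650 control siRNA arrays. The unstimulated LRRC1 signal was the lowest array of A549 and the highest of H1650, a difference of -1.82 ± 0.23 log2 (limma adjusted p = 0.015). ATG13, part of the ULK1 complex that starts autophagy, followed. On the A549 arrays with ID1 siRNA the signal was 426 (nicotine) and 497 (EGF), and on those with control siRNA it was 768 (nicotine), 804 (EGF) and 379.8 (no stimulus). H1650 gave 310.5 (nicotine) and 349.6 (EGF) with ID1 siRNA, against 913 (nicotine), 788 (EGF) and 1047 (unstimulated) with control siRNA. For ATG13 too the unstimulated array was lowest in A549 and highest in H1650 (-1.65 ± 0.24, limma adjusted p = 0.0252). Next came VAMP3 (-1.42 ± 0.18, limma adjusted p = 0.0147), FAM174A (-1.39 ± 0.21, limma adjusted p = 0.0267) and PCMTD1, a relative of protein repair methyltransferases (-1.35 ± 0.21, limma adjusted p = 0.0277). ID1 itself moved with this result, with an unstimulated signal of 1645.1 in A549 and 5029.9 in H1650, as given above. Without the intensity trend 0 of the 14 were called. There is 1 unstimulated array per line, so a property of that array and the absence of a stimulus cannot be told apart.

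**Figure D3:**
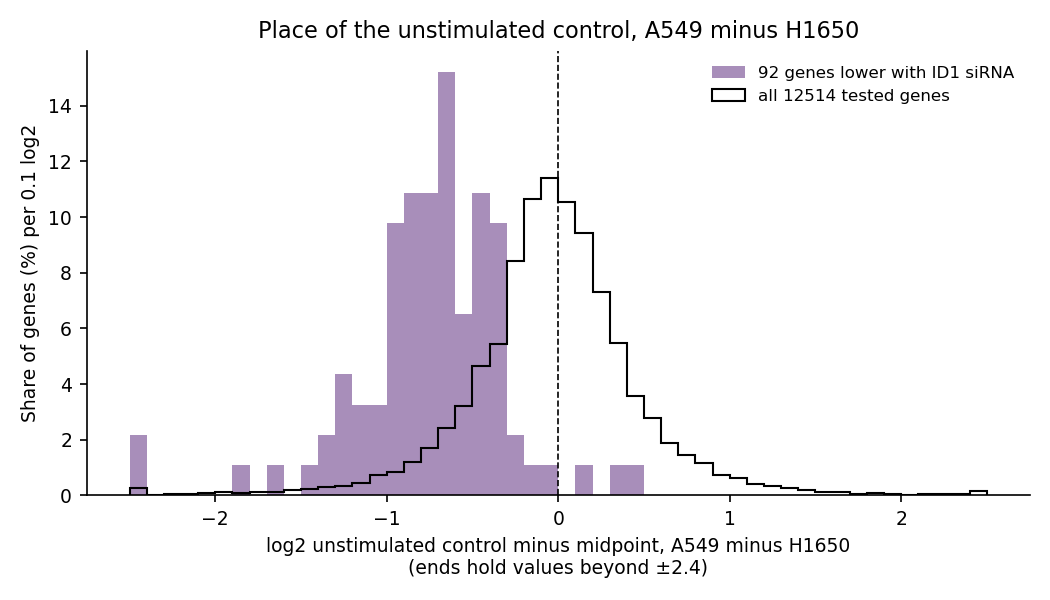
Share of genes (vertical axis, % per 0.1 log2) by the log2 signal of the unstimulated control minus the midpoint of the 4 stimulated arrays, A549 minus H1650 (horizontal axis), with the 92 members filled and all 12514 tested genes in outline. The members lie mainly left of 0, with a median of -0.69, and the tested genes around it, with a median of -0.03.

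RASD1, a Ras-like protein induced by dexamethasone, had its lowest signal on the unstimulated array in both lines. It was picked out here after its values were seen. RASD1 had signals of 208 with nicotine and 342 with EGF on the A549 ID1 siRNA arrays, against 539 with nicotine, 542 with EGF and 144 without stimulus on the A549 control siRNA arrays. On the H1650 arrays with ID1 siRNA the signal was 31.6 (nicotine) and 26.0 (EGF), and on those with control siRNA it was 76.6 (nicotine), 57.0 (EGF) and 15.1 (no stimulus). The ID1 siRNA arrays of RASD1 lay between the unstimulated and the stimulated controls. In H1650 only the nicotine control reached the filter signal, so the order there rests on dim values and the RASD1 estimate below is uncertain. With both lines together, the unstimulated arrays were set against the mean of all stimulated ones, which again holds the ID1 siRNA arrays, and limma called 0 of 92 members, as it called 0.0% of tested genes. Unadjusted p was under 0.05 for 3 members and for 2% of tested genes, and RASD1 had -1.46 ± 0.28 log2 (limma adjusted p = 1).

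No difference between EGF and nicotine passed the test in the members. Over both lines limma called 0 members (0.0639% of tested genes), in A549 0 (0.032%) and in H1650 0 (0.216%). The difference between lines was called for 0 members and for 10 tested genes. Its unadjusted limma p was under 0.05 for 10 members and for 7.98% of tested genes. Unadjusted p was under 0.05 for 12 members over both lines, 11 in A549 and 11 in H1650, beside 11.2%, 9.57% and 10.7% of tested genes. The smallest adjusted p over both lines belonged to GPRC5A, a retinoic acid induced receptor of lung epithelium. The A549 ID1 siRNA values for GPRC5A were 6734 under nicotine and 9239 under EGF, and the control siRNA values were 10724 under nicotine, 18974 under EGF and 6839 unstimulated. H1650 gave 5241 (nicotine) and 6236 (EGF) with ID1 siRNA, against 11016 (nicotine), 11810.3 (EGF) and 10144 (unstimulated) with control siRNA. EGF exceeded nicotine in all 4 matched comparisons for GPRC5A, by 0.41 ± 0.09 log2 over both lines (limma adjusted p = 0.144) and 0.64 ± 0.13 in A549 (limma adjusted p = 0.28). In H1650 the smallest was NCEH1, at 0.61 ± 0.11 (limma adjusted p = 0.0758). None of these passed the threshold of 0.05, which does not show that the stimuli act alike on the members.

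The lines differed in level for most members, as they did for most tested genes. By limma 31 members were higher in A549 (33.7%, against 30.9% of tested genes), 30 were lower (32.6%, against 32.2%) and 31 were not called, so the shares were near the background. The residual error of this test holds differences between the lines' ID1 siRNA ratios, which the rule used, so its SEs and p-values are not free of the rule. With array-median centring 38 were higher and 25 lower. The median absolute difference was 0.62 log2 in the members and 0.55 in tested genes. Of the called members 27 differed more than 2-fold, 15 higher and 12 lower, and the 5 arrays of A549 did not overlap the 5 of H1650 for 22 members. The counts of 27 and 22 were not made over all tested genes. The falls chosen by the rule also widen the range of each line, so these counts only describe the members. Among those higher in A549, AMDHD1, an enzyme of histidine breakdown, averaged 9.06 ± 0.60 in A549 and 5.34 ± 0.48 in H1650 (log2, SD, n = 5 each). Since H1650 was under the filter there, its difference is a bound of at least 6.94-fold, taken against each H1650 array's median signal where the probe set was dimmer than that. AMDHD1, RASD1 and AS3MT (dim in H1650) and LYPD3 and FBXO36 (dim in A549) passed the filter only through the brighter line. The filter thus favoured a line difference for these 5, which are among those called, and no p-value is given for them. LONRF2 averaged 9.56 ± 0.51 in A549 and 6.08 ± 0.53 in H1650, a difference of 3.48 ± 0.15 (SE; limma adjusted p = 3.84e-07). The H1650 mean of LONRF2 lay barely above the filter, with 3 arrays under it, so the size of this difference is uncertain. NR5A2 averaged 11.47 ± 0.46 in A549 and 8.26 ± 0.55 in H1650, 9.29-fold apart (limma adjusted p = 6.4e-07). RASD1 was at least 4.07-fold higher in A549, where it averaged 8.29 ± 0.84, against 5.14 ± 0.93 in H1650. KICS2, a subunit of the complex that brings GATOR1 to lysosomes, averaged 10.35 ± 0.40 in A549 and 8.17 ± 0.50 in H1650 (limma adjusted p = 6.89e-06).

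Among members lower in A549, LYPD3 averaged 4.72 ± 1.5 in A549 and 10.14 ± 0.79 in H1650 (log2, SD, n = 5 each), and with A549 under the filter the bound was at least 14.2-fold. FBXO36 averaged 5.36 ± 1.31 in A549 and 7.40 ± 0.60 in H1650, at least 2.05-fold, and its single arrays overlapped between the lines. ALMS1-IT1 averaged 6.58 ± 0.66 in A549 and 8.43 ± 0.67 in H1650, a difference of -1.85 ± 0.22 (limma adjusted p = 0.000108). CBX7, a Polycomb reader, averaged 6.44 ± 0.65 in A549 and 8.26 ± 0.61 in H1650 (limma adjusted p = 9.14e-05). The A549 means of ALMS1-IT1 and CBX7 lay near the filter, each with 1 array under it, so the sizes of these differences are uncertain. ELL2 averaged 10.46 ± 0.57 in A549 and 12.21 ± 0.65 in H1650, -1.75 ± 0.18 apart (limma adjusted p = 5.44e-05). The SDs hold the ID1 siRNA falls as well, since each mean runs over all 5 arrays of a line.

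**Figure D4:**
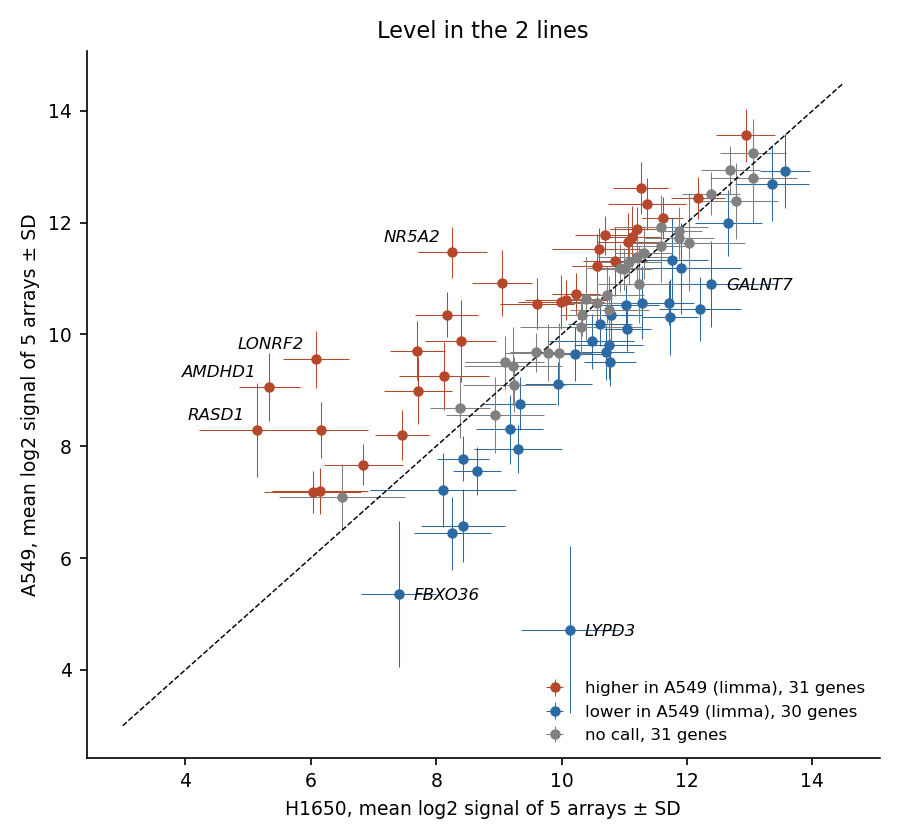
Mean log2 signal of each member over the 5 arrays of A549 (vertical axis) and of H1650 (horizontal axis), with bars for the SD and a dashed line of equal signal. Points above the line are higher in A549 (31 called by limma) and points below it are lower (30 called), and LYPD3, at 4.72 in A549 and 10.14 in H1650, lies farthest from it.

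Other probe sets of the same genes read the same RNA with different probes, so they show how far a fall depends on 1 probe set. Of the 92 members, 52 had at least 1 other probe set above the filter (87 in all), 14 had only dim others and 26 had a single probe set. Of the 87, 59 (67.8%) were lower with ID1 siRNA in all 4 pairs, against 11.3% of 10542 other probe sets of the remaining genes. At the threshold in all 4 pairs were 27 of the 87 (31.0%), against 0.341% of those of the remaining genes. Their median mean log2 ratio was -0.69, beside -0.93 for the chosen probe sets of the same members and 0.09 for the remaining genes' others. At least 1 other probe set met the threshold throughout for 22 members, and at least 1 was lower throughout for 41. In the order A549 nicotine, A549 EGF, H1650 nicotine, H1650 EGF, the other VAMP3 probe sets had log2 ratios of -1.28, -1.46, -1.55 and -1.5 in one case and -0.99, -1.51, -1.85 and -1.55 in the other. The other GALNT7 probe set had -1.58, -1.71, -2.07 and -1.64. For VAMP3 these average -1.45 and -1.48 beside -1.61 for the chosen probe set, and for GALNT7 -1.75 beside -1.65. UHMK1 had 3 others, with mean ratios of -1.80, -1.33 and -0.99 beside -1.25 for the chosen one.

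For 11 members no other bright probe set was lower in all 4 pairs (CA5BP1, COQ8B, FBXW11, FDX1, GPRC5A, KDM4B, LMBRD2, LONRF2, PPP2R2A, REEP5 and STAU2, named after their values were seen). The second REEP5 probe set, at a mean log2 signal of 10.89, had ratios of -0.81 and -0.77 in A549 and 0.31 and 0.06 in H1650, so the H1650 fall of REEP5 was seen by its chosen probe set and not by this one. GPRC5A showed the same split, at -0.73 and -0.61 in A549 and 0.15 and 0.21 in H1650. STAU2, a double-stranded RNA-binding protein of RNA transport, had another probe set at 0.73 and 1.26 in A549 and -0.23 and 0.12 in H1650. For ATG13 one of the others had 0.02 and 0.14 in A549 and -0.13 and -0.25 in H1650. The 1 probe set higher in all 4 pairs belonged to PCMTD1 (0.60 and 1.26 in A549, 0.06 and 0.97 in H1650) and was dim, at a mean log2 signal of 6.07. Among the chosen probe sets, 65 end in _at, 25 in _s_at, 1 in _a_at and 1 in _x_at, the suffix of probes that may also bind other transcripts. Whether disagreeing probe sets read different isoforms was not tested.

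**Figure D5:**
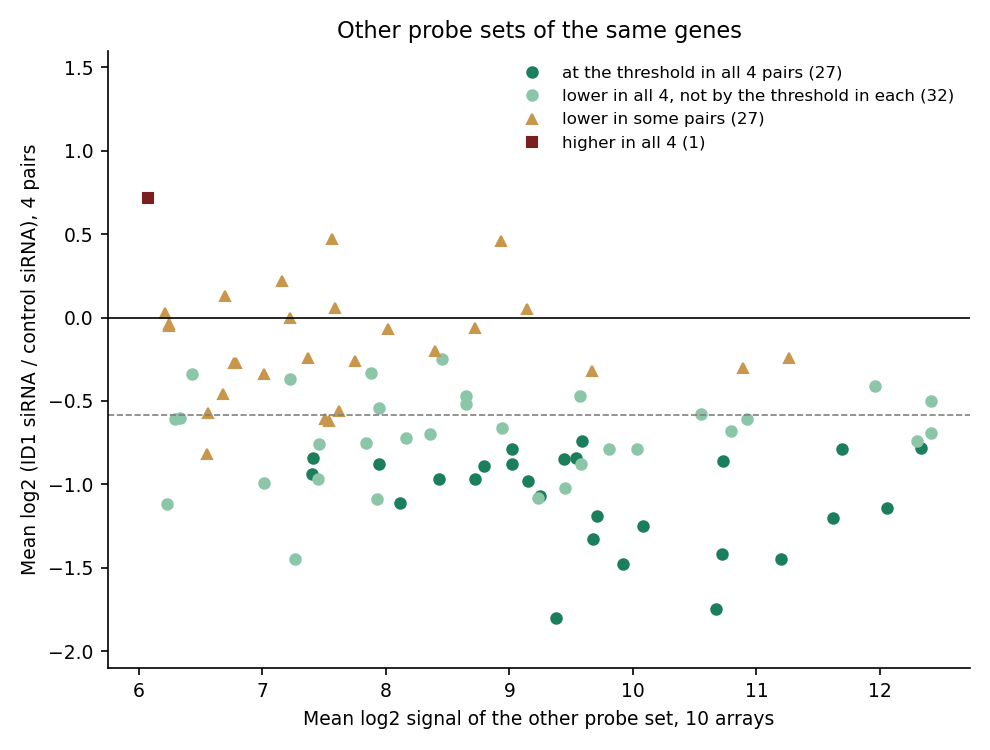
Mean log2 ratio of ID1 siRNA over control siRNA over the 4 pairs (vertical axis) against mean log2 signal (horizontal axis) for the 87 other probe sets of 52 members, coloured by how many pairs were lower. Of these, 59 were lower in all 4 pairs, 27 of them by the threshold in every pair, and the 1 higher in all 4 is the dimmest, at 6.07. The dashed line is the threshold on the mean ratio, and points under it are not all among the 27.

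The families and pathways of the members were followed in 19 gene lists, in which 287 tested genes were not members. For these the ID1 siRNA effect over the 4 pairs was tested by limma: 2 of the 287 were lower and 6 higher. Of all tested genes 2.05% were lower and 1.7% higher, with a median effect of 0.03. The shares of all tested genes include the members, whereas the 287 had lost theirs, which the rule chose for low values of this same effect. The removal takes away lower genes, so the shares are not alike and the balance of directions is partly fixed by it. The balance of directions turned with the scaling: 11 were lower and 2 higher with array-median centring, and 6 lower and 6 higher with quantile normalization. Of 30 tested SNARE proteins, which fuse vesicles with membranes, VAMP3 was the 1 member, and of the other 29 only STX12, an endosomal syntaxin, was called, higher at 0.69 ± 0.13 (SE, log2; limma adjusted p = 0.039; list median -0.03). Of 30 Rab GTPases, switches of vesicle traffic, RAB1B and RAB10 were members, and RAB21 was lower at -0.54 ± 0.09 (limma adjusted p = 0.0268; median of the other 28 -0.12). REEP5 was the 1 member of 13 ER shaping proteins, GALNT7 of 15 O-glycosylation transferases, EIF2S2 of 22 translation factors, UBE2E3 of 20 ubiquitin-conjugating enzymes and TSPAN13 of 16 tetraspanins, and limma called 0 of the others on these 5 lists (medians 0.05, 0.09, -0.11, -0.11 and 0.06 in that order, with 1, 4, 0, 4 and 7 of them at an unadjusted p under 0.05). ATG13 was the 1 member of 24 autophagy genes, where WIPI2, which binds phosphoinositides on forming autophagosomes, was higher at 0.54 ± 0.09 (limma adjusted p = 0.0322; median 0.06). PPP2R2A was the 1 member of 13 PP2A subunits, and its paralogue PPP2R2D was higher at 1.85 ± 0.27 (limma adjusted p = 0.0219; median -0.16).

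The other lists held 0 members. Among 12 ID and E proteins TCF3, an E protein that ID1 binds, was higher at 0.54 ± 0.11 (limma adjusted p = 0.0443; median 0.15). Among 13 genes of ribonucleotide and dNTP metabolism RRM2B, a subunit of ribonucleotide reductase, was lower at -0.96 ± 0.19 (limma adjusted p = 0.0452; median -0.04). Among 16 receptor tyrosine kinases FGFR3 was higher at 0.90 ± 0.17 (limma adjusted p = 0.0423) and IGF1R at 0.75 ± 0.12 (limma adjusted p = 0.0262; median 0.11). Limma called 0 of 11 integrins (median -0.05), 0 of 20 TGF-beta and BMP receptors and SMADs (0.07), 0 of 22 lysosomal proteins (-0.01) and 0 of 10 ribosomal proteins (-0.13), with 1, 7, 7 and 0 at an unadjusted p under 0.05. It also called 0 of 5 epithelial markers (-0.01), 0 of 2 blood and endothelial markers (0.12) and 0 of 3 fibroblast markers (0.81), with 0, 0 and 1 at an unadjusted p under 0.05.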

How the data were processed

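RNA of 10 samples was measured on Affymetrix U133 Plus 2.0 arrays. The deposited values are linear MAS5 signal intensities, and the submitters' processing notes name GCOS 1.4 and MAS5 for them. Each array's 2% trimmed mean is 500. The labels speak of log2, but the values are linear, so log2 was taken here. Of 54675 probe sets, 41097 carried 1 gene symbol (41043 matched by Entrez identifier), 1801 several, 11715 had no gene listed, and 62 were controls. Per gene the probe set of highest mean log2 signal was kept (19775 genes), and 12514 whose mean reached the log2 of a signal of 66.7, the median of all probe sets, were tested. Groups came from the labels, and pairs were matched by line and stimulus.

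Tests were run in limma 3.58.1 (R 4.3.3) with an intensity trend, p-values were adjusted over all tested genes by Benjamini-Hochberg, and genes with an adjusted p under 0.05 were called. Line and unstimulated contrasts used all 10 arrays (4 residual degrees of freedom) and EGF against nicotine the 8 stimulated arrays (2). The ID1 siRNA effect was fitted on the same 8 arrays, blocked by line and stimulus. The midpoint contrast had terms for siRNA and stimulus within each line (2). Both fits with 2 residual degrees of freedom take their residual error from the gap between a line's EGF and nicotine ratios, which the rule used. The fits with 4 take theirs from differences between the lines over the conditions. These include differences between the lines' ID1 siRNA ratios, so the members' SEs there are not free of the rule either. The ID1 siRNA effect was tested for genes on the lists that are not members. Scripts were checked on simulated data. An at least fold compares the brighter line with the array's median signal or the dim line's own value, whichever is higher on each array. The number of arrays limits the precision, and the labels give no replicate numbers.

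Alternatives were quantile normalization, array-median centring, 16 added to each signal, other probe set rules, filters and thresholds, no trend, and leaving out arrays or pairs. The members and lists were chosen with earlier results of these data known. Named with all signals are the 15 members with the largest smallest fall. Further names are up to 4 per function group, up to 5 called per direction and contrast, the 3 genes nearest the threshold on each side, ID1 and up to 4 called genes per list. RefSeq promoters (GRCh38.p14) span 300 bases.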

Additional observations from a re-analysis of the deposited data

Results flagged for a closer look

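The difference between the lines in the place of the unstimulated control was called for 14 members. The value is the unstimulated control minus the midpoint of the 4 stimulated arrays in A549, minus the same in H1650, on the log2 scale with its SE and limma's adjusted p. In traffic and reticulum shape it was -1.42 ± 0.18 for VAMP3 (limma adjusted p = 0.0147), -1.26 ± 0.17 for REEP5 (0.0159), -1.24 ± 0.16 for AAGAB (0.015), -1.08 ± 0.20 for TBC1D22A (0.0472) and -1.82 ± 0.23 for LRRC1 (0.015). Among the metabolic genes it was -1.04 ± 0.18 for GPD2 (0.0437) and -0.95 ± 0.15 for FDX1 (0.0277). It was -1.28 ± 0.20 for GALNT7 (0.0277), -0.96 ± 0.15 for HIPK3 (0.0277), -1.15 ± 0.15 for ELL2 (0.015) and -1.39 ± 0.21 for FAM174A (0.0267). The remaining ones were PCMTD1 at -1.35 ± 0.21 (0.0277), ATG13 at -1.65 ± 0.24 (0.0252) and CEP15 at -0.91 ± 0.15 (0.0383). All 14 carried the same sign, and each rests on 1 unstimulated array per line. The SEs draw on ratios that the rule used, so these adjusted p-values are not free of the choice of members.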

How the results depend on the processing

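The count of 92 members became 195 with array-median centring, 14 with a 2-fold threshold and 118 to 132 when 1 pair was left out. With the mean of all bright probe sets of a gene 70 genes met the rule, and 62 of these were among the 92. Under quantile normalization 107 met it, 83 of them among the 92. The 14 members called for the difference between lines in the midpoint contrast became 24 with centring and 0 without the intensity trend. EGF against nicotine, with 0 members called, gave 0 to 4 when an array pair was left out, the 4 without the A549 ID1 siRNA pair. The 8 listed genes that were called (2 lower, 6 higher) became 13 with centring (11 lower, 2 higher), 12 with quantile normalization (6 lower, 6 higher), 0 without the trend and 0 whenever 1 pair was left out. The causes of these changes were not tested, and the fits that leave arrays out have fewer arrays. In 10 alternatives of the line test the called members ranged between 56 and 68. Other probe sets lower throughout numbered 59 to 68 under the alternatives run for them, and the planned unstimulated contrast gave 0 calls in all 12. The pairs matched by line and stimulus are the blocks of the ID1 siRNA test, and the labels give no replicate numbers to block on. With 1 array per line and condition, the spread between cultures is unknown, and dim signals limit LYPD3 and FBXO36 in A549 and AMDHD1, RASD1 and AS3MT in H1650. Single arrays under the filter also limit LONRF2, RPS6KA6, PARP11 and MICAL1 in H1650, and ALMS1-IT1 and CBX7 in A549.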
